A study of Triticum aestivum with 58 samples.

Results

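The Rht-1 genes of bread wheat are the A, B and D homoeologues, the matching copies in the 3 subgenomes, of the DELLA gene whose mutant forms gave the semi-dwarf wheats. They were chosen by identifier, as Rht-A1 (TraesCS4A02G271000), Rht-B1 (TraesCS4B02G043100) and Rht-D1 (TraesCS4D02G040400). All 3 were listed in every count table, among 120744 genes of which 107891 have a TraesCS identifier. The identifiers place them on chromosomes 4A, 4B and 4D, and the summed exon lengths used for counting were 2120 bases for Rht-A1, 2323 bases for Rht-B1 and 1872 bases for Rht-D1. Coordinates were not used here.

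DELLA proteins are nuclear repressors of growth. When gibberellin binds its receptor GID1, the receptor takes hold of the DELLA protein, an F-box protein marks it for breakdown, and growth genes are released. In the semi-dwarf alleles Rht-B1b and Rht-D1b a premature stop codon near the start of the gene gives a DELLA protein that gibberellin no longer removes, so stems stay short. The level of control known from this system is mainly that of the protein, and counts of short reads per gene do not tell the tall alleles from the dwarfing ones. Which of the cultivars carried a dwarfing allele was not given in the sources used here.

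The libraries came from leaf and root of wheat seedlings collected 2 weeks after germination, grown without treatment, with up to 3 replicate libraries of each cultivar and tissue. The 24 spring wheat cultivars of the study's list gave 66 leaf and 69 root libraries, and 6 other cultivars gave 16 leaf and 12 root libraries that entered no main comparison. In root, 14 libraries came from 5 cultivars released before 1965 (T-9, C-518, C-217, C-271 and Dirk) and 55 libraries from 19 cultivars released later, beginning with Maxipak-65 in 1965 itself. Dirk, released in 1958, has a dwarf parent in its listed pedigree, so the earlier group is not known to hold tall wheats only, and the label Barani was read as Barani-83.

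Between 8111979 and 11212584 reads per library were counted on genes, with a median of 9428073. In root, the libraries of the cultivars released before 1965 had between 9890387 and 11126031 reads. Those of the later cultivars had between 8421545 and 11212584, and many of them lay below every earlier library. Whether depth bears on the comparison of eras was not tested. In the listed cultivars, the 3 leaf marker genes (PpD) summed to between 11.5 and 99.6 tpm in leaf libraries and to between 0 and 1.95 tpm in root libraries. The 12 root marker genes (EXPB1, TaMOR, COW1 and LRA1) summed to at most 0.298 tpm in leaf libraries and to between 3.28 and 37.5 tpm in root libraries, where COW1_4A and COW1_4B had a median of 0. The tissue labels were therefore matched by the markers in each of the 66 leaf and 69 root libraries of the listed cultivars. Most of these marker genes had already been named by the study, from the same data, as exceptions to expression in leaf or in root. The match is therefore not an independent check of the labels, and shows only that no listed library departed from the pattern of its label. The cultivar names were not matched in each library. Over 241 genes that were either on or off in nearly all libraries, 6 of 65 leaf libraries and 41 of 69 root libraries agreed by at least 97% with another library of their own name and tissue. Of the 66 leaf libraries, 50 matched root libraries of other cultivar names only. Of the 69 root libraries, 48 matched leaf libraries of other names only, and 7 matched a leaf library of their own name. Results that rest on a cultivar name, in leaf or in root, carry that limit. The root tests were repeated with the libraries alone that matched another root library of their name. Such a match shows that libraries of a name are alike, and not that the name is right. Per the study's methods the seeds of each cultivar were sown in triplicate, and whether a library holds 1 plant or a pool was not given in the sources used here. The tests of differences between cultivars therefore take the spread between these libraries as their error. Those of tissue, era, year of release and shares use 1 value per cultivar and tissue, and take the spread between cultivars.

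All 3 homoeologues were expressed in every library of both tissues. Rht-B1 was the highest of the 3 in 64 of 66 leaf libraries, and Rht-A1 was the highest in 53 of 69 root libraries. Rht-D1 was the lowest in 60 leaf and 67 root libraries. The levels are in tpm, counts divided by gene length and scaled to a fixed total per library, so that the homoeologues can be compared.

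Rht-A1 ranged between 19.97 and 56.4 tpm in leaf libraries with a median of 28.6 tpm, against 32.7 to 57.7 tpm with a median of 42.7 tpm in root libraries. The A copy lay lower in leaf than in root in tpm, with overlapping ranges, though not with TMM normalization as given below, and Maxipak-65 was the only cultivar of 24 whose mean was higher in leaf. The counts behind these values were 298 to 784 in leaf and 430 to 836 in root.

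Rht-B1 ranged between 28.04 and 70.7 tpm in leaf libraries with a median of 40.4 tpm, against 24.7 to 53.9 tpm with a median of 38.0 tpm in root libraries. The B copy reached the highest levels of the 3 genes, and 15 leaf libraries exceeded the highest root library. Its mean was higher in leaf in 15 of 24 cultivars. The counts were 420 to 1116 in leaf and 412 to 849 in root.

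Rht-D1 ranged between 10.4 and 35.5 tpm in leaf libraries with a median of 17.1 tpm, against 14.6 to 47.7 tpm with a median of 22.8 tpm in root libraries. The ranges overlapped over most of their width. The D copy lay lower in leaf in tpm but not with TMM normalization, and Pasban-90 was the only cultivar whose mean was higher in leaf. The counts were 126 to 471 in leaf and 175 to 581 in root.

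**Figure D1:**
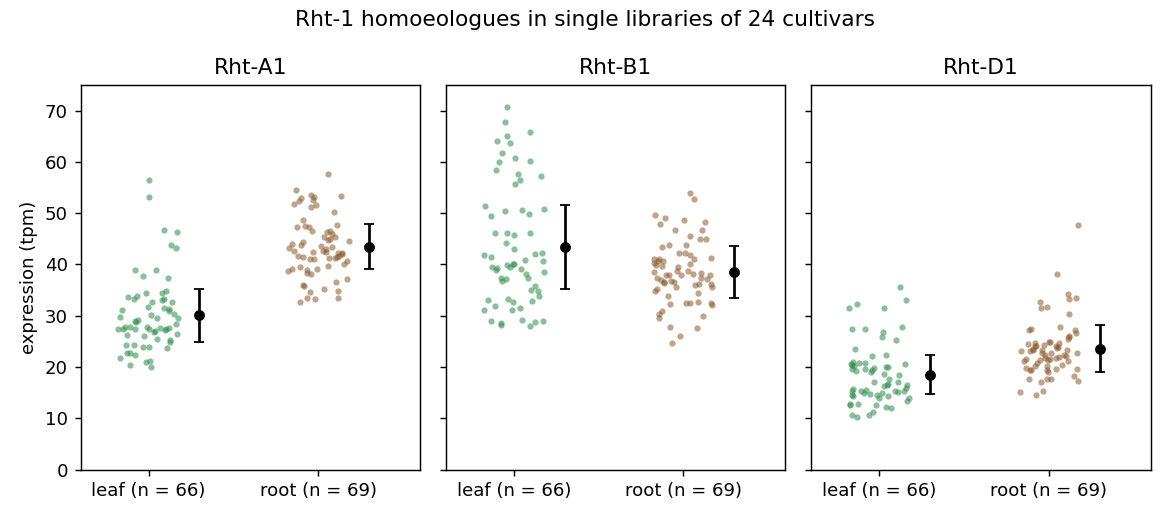
Expression of Rht-A1, Rht-B1 and Rht-D1 in tpm (vertical axis) in single libraries, leaf on the left (n = 66) and root on the right (n = 69) of each panel; black points and bars are the mean and SD over 24 cultivar means. On this scale Rht-A1 and Rht-D1 lie lower in leaf than in root (with TMM normalization both are higher), while the leaf libraries of Rht-B1 spread up to 70.7 tpm.

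The mean and SD over 24 cultivar means for Rht-A1 were 30.1 ± 5.18 tpm in leaf libraries and 43.5 ± 4.41 tpm in root libraries. Rht-B1 averaged 43.4 ± 8.20 tpm in leaf and 38.6 ± 5.10 tpm in root. Rht-D1 averaged 18.5 ± 3.77 tpm in leaf and 23.6 ± 4.64 tpm in root. The summed level of the 3 genes was 92.0 ± 13.4 tpm in leaf and 106 ± 9.54 tpm in root.

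Whether Rht-A1 and Rht-D1 count as higher or lower in leaf depended on how the 2 tissues were scaled. In edgeR's quasi-likelihood test on counts summed per cultivar, with TMM normalization, the log2 fold change of leaf over root was 0.55 (SE 0.06, adjusted p = 1.96e-12) for Rht-A1, 1.26 (SE 0.08, adjusted p = 1e-19) for Rht-B1 and 0.74 (SE 0.08, adjusted p = 2.01e-11) for Rht-D1. All 3 passed the threshold of 0.1 on the adjusted p, as did 87.9% of the 62747 genes tested, with 40.3% of those tested called higher in leaf, so the call itself says little about the members. On log2(tpm + 1), limma gave -0.53 (SE 0.06, adjusted p = 2.76e-12) for Rht-A1 and -0.33 (SE 0.08, adjusted p = 7.69e-05) for Rht-D1, while Rht-B1 stayed positive at 0.15 (SE 0.07, adjusted p = 0.033). That fit called 93.1% of the genes, 21.1% higher and 72% lower in leaf. The median log2 fold change of all tested genes was -0.14 with TMM and -0.82 on log2(tpm + 1), and the genes called higher and lower in leaf numbered 25303 and 29875 with TMM against 13259 and 45181 on the tpm scale. Set against that median, Rht-A1 was 0.69 higher, Rht-B1 1.41 higher and Rht-D1 0.88 higher in leaf with TMM. On the log2(tpm + 1) scale the 3 differences were 0.29, 0.97 and 0.48. There the added 1 shrinks the changes of genes with low levels, so the 2 sets of differences are not the same measure. Rht-B1 had a fold change above that of 77.5% of all tested genes with TMM, Rht-D1 above 70.4% and Rht-A1 above 66.9%. In whole organs, fewer cells of a type and less RNA per cell cannot be told apart.

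The balance between the homoeologues is measured within each library and does not depend on that scaling. How reads that fit several homoeologues were counted was not given in the sources used here, so the split between the 3 copies carries that uncertainty in both tissues. The B copy made up 46.9 ± 3.96% of the summed tpm of the 3 genes in leaf and 36.5 ± 3.65% in root (SD, n = 24 cultivars each), a difference of 10.3 percentage points (SE 1.10). Its share was higher in leaf in 24 of 24 cultivars by name, and 39 of 66 leaf libraries exceeded the highest root library. The A copy made up 32.9 ± 3.65% in leaf and 41.2 ± 2.22% in root, a difference of -8.28 points (SE 0.872), and was lower in leaf in every one of the 24 cultivars. The D copy made up 20.2 ± 3.06% in leaf and 22.3 ± 3.54% in root, a difference of -2.05 points (SE 0.955). A two-sided permutation test over cultivar means with 100000 resamples gave p = 2e-05 for A and for B, the smallest these resamples can give, and p = 0.0367 for D. Adjusted over the 3 shares by the Benjamini-Hochberg method these were 3e-05, 3e-05 and 0.0367. Without replicate libraries 2 the difference in the D share was -1.11 points with an adjusted p of 0.372 in the same permutation test. As a log2 ratio, B over A averaged 0.51 ± 0.26 in leaf and -0.18 ± 0.19 in root.

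**Figure D2:**
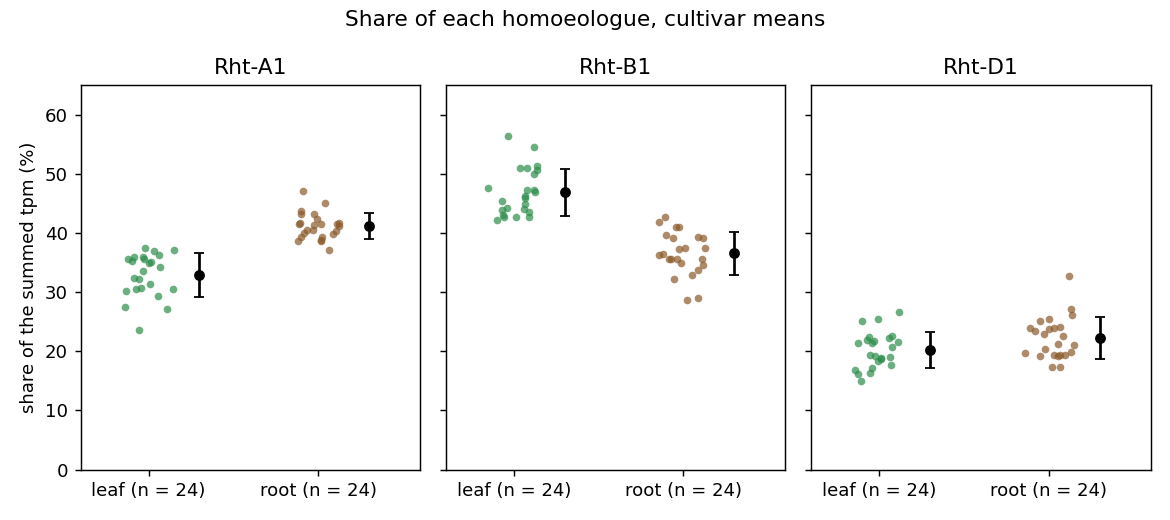
Share of each homoeologue in the summed tpm of the 3 genes, in percent (vertical axis), as cultivar means in leaf (left, n = 24) and root (right, n = 24) of each panel, with the mean and SD in black. The B share lies at 46.9% in leaf and 36.5% in root and the A share at 32.9% in leaf and 41.2% in root; the cultivar means of leaf and root overlap slightly for A and B and over most of their range for D.

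Single libraries departed from this pattern. The B share ran between 34.8% and 63.6% over leaf libraries, with its lowest value in Pak-13 library 3 and its highest in Punjab-96 library 2. In Pasban-90 library 1 and Ujala-2016 library 1, Rht-A1 and not Rht-B1 was the highest of the 3 in leaf. Rht-A1 was the lowest of the 3 in 6 leaf libraries, among them Punjab-96 libraries 1 and 3. Over root libraries the B share ran between 25.1% in Parwaz-94 library 3 and 44.9% in Rawal-87 library 2.

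Because leaf and root libraries of the same name seldom matched on the on/off genes, the shares were also compared without the names. Each leaf library was set against the root library most like it on those genes, whatever its name. For 53 leaf libraries a root library agreed by at least 97%, with 30 different root libraries in all. The B share was higher in the leaf library than in its matched root library in 50 of 53 pairs, by a median of 10.3 points, and the A share was higher in leaf in 2 of 53. Over these 53 pairs, the D share of the leaf library followed that of the matched root library with r = 0.536 (Pearson) and rho = 0.456 (Spearman). With the root mean of its own name r was 0.0761 and rho 0.108. For the B share, r was 0.303 (rho 0.321) with the matched library and -0.000501 (rho 0.0841) with the root of the same name. For the A share it was 0.135 (rho 0.19) with the matched library and 0.0421 (rho 0.175) with the root of the same name. These are descriptions without a test, since several pairs share a root library.

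In root, all 3 homoeologues passed the test of differences between cultivars, as did most genes tested. Rht-D1 passed by the widest margin, and Rht-A1 did not pass without replicate libraries 3. The cultivar means of Rht-A1 ran between 35.8 tpm in Chakwal-97 and 54.8 tpm in NARC-2009, with an SD of 4.41 tpm over cultivar means and 4.76 tpm among libraries of a cultivar. Those of Rht-B1 ran between 29.9 tpm in Dirk and 49.3 tpm in NARC-2009, with an SD of 5.10 tpm over cultivar means and 4.56 tpm within cultivars. Those of Rht-D1 ran between 15.8 tpm in Rawal-87 and 38.5 tpm in Parwaz-94, with an SD of 4.64 tpm over cultivar means and 3.74 tpm within cultivars. edgeR's quasi-likelihood F-test over 69 root libraries gave an adjusted p of 0.00283 for Rht-A1, 0.00142 for Rht-B1 and 5.99e-06 for Rht-D1. All 3 passed, as did 83.6% of the 64317 genes tested, so the call itself says little about the members. Without replicate libraries 3 the adjusted p of Rht-A1 was 0.123 in the same test. With the 41 matching libraries alone the adjusted p was 0.00274 for Rht-A1, 0.00118 for Rht-B1 and 1.75e-06 for Rht-D1.

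Rht-D1 in Parwaz-94 stood highest in root, with 33.5, 34.3 and 47.7 tpm in its 3 libraries. In Parwaz-94 libraries 2 and 3, Rht-D1 exceeded Rht-B1, which had 30.4 and 32.7 tpm there. Pari-73 followed with 27.8, 33.4 and 32.7 tpm of Rht-D1. At the other end, Rawal-87 had 17.4, 15.3 and 14.6 tpm of Rht-D1, so that its libraries did not overlap those of the 2 cultivars named before it. The same cultivar name did not keep its place in leaf, where Rht-D1 in Parwaz-94 was 12.2, 14.96 and 11.2 tpm, the lowest cultivar mean of 24. On the on/off genes, however, leaf Parwaz-94 libraries 1 and 2 were most like root C-518 library 2 and root C-271 library 2. The leaf libraries most like root Parwaz-94 library 2 were C-217 library 1 and Chakwal-50 library 1. Their D shares were 28.7% and 29.5%, against a leaf mean of 20.2%.

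Rht-B1 was highest in root in NARC-2009, with 46.8, 52.8 and 48.3 tpm, followed by Pasban-90 with 38.1, 53.9 and 49.7 tpm. Rht-A1 was highest in the same 2 cultivars, with 57.7, 53.2 and 53.4 tpm in NARC-2009 and 46.5, 54.4 and 53.6 tpm in Pasban-90. Both copies were therefore high together in these cultivars, whereas Rht-D1 in Pasban-90 was 19.4, 19.4 and 23.3 tpm, rank 18 of 24. In Seher-2006, library 2 lay below its fellows in all 3 genes, with 32.7 tpm of Rht-A1 against 51.7 and 47.6 tpm in libraries 1 and 3, and 24.7 tpm of Rht-B1 against 37.3 and 40.3 tpm.

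Most neighbours in the order of cultivars were not separable. Of the 23 neighbouring pairs in root, none for Rht-A1 or Rht-B1 and 2 for Rht-D1 differed by more than 1 standard error of the difference, taken from the pooled SD of replicate libraries. The largest gap was that between Parwaz-94 and Pari-73 for Rht-D1, at 7.22 tpm or 2.37 standard errors. In leaf, 1 pair for Rht-A1, that of Pasban-90 and Seher-2006, exceeded 1 standard error and no pair did so for the other 2 genes.

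In leaf, the spread among libraries of the same name was wider, at 21.4% of the mean for Rht-A1, 24.7% for Rht-B1 and 29.9% for Rht-D1, against 10.99%, 11.8% and 15.8% in root. Counting error alone would give 4.84%, 3.87% and 6.65% in leaf and 4.04%, 4.10% and 5.88% in root. No member passed the test of differences between cultivars in leaf with edgeR, where the adjusted p was 0.24 for Rht-A1, 0.258 for Rht-B1 and 0.22 for Rht-D1, while 27.2% of 56665 genes did. None of the 3 had an unadjusted p under 0.05 with edgeR. Without replicate libraries 2, edgeR called Rht-D1 at an adjusted p of 0.0421. With a replicate number left out, edgeR called between 4225 and 7095 of all genes, and the adjusted p of Rht-D1 ran between 0.0421 and 0.906. DESeq2 called 1 of the 3 members, Rht-A1, with an adjusted p of 0.0764, and called 39.7% of its genes. On log2(tpm + 1), limma called none of the 3 members and 20.2% of its genes. Among the 24 listed cultivars, the highest leaf mean of Rht-B1 was that of Seher-2006, whose libraries had 67.8, 65.9 and 51.4 tpm, and the highest of Rht-A1 was that of Maxipak-65, at 45.4 tpm. The part of the contradicted leaf names in this comparison was not tested.

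The root cultivars released before 1965 were set against later ones because semi-dwarf wheats spread from about that year. Rht-B1 had the lower levels in the earlier cultivars, Rht-A1 and Rht-D1 had like levels, and no member passed the test over all genes. The cultivar means of Rht-B1 before 1965 were 31.6 tpm in T-9, 34.0 tpm in C-518, 37.3 tpm in C-217, 33.3 tpm in C-271 and 29.9 tpm in Dirk. Their 14 libraries were 30.1, 35.3 and 29.5 tpm in T-9, 37.3, 32.1 and 32.5 tpm in C-518, 44.9, 34.5 and 32.5 tpm in C-217, 27.9, 38.4 and 33.8 tpm in C-271, and 27.7 and 32.2 tpm in Dirk. The means of the 19 later cultivars ran between 33.3 and 49.3 tpm with a median of 38.8 tpm. The groups overlapped, and the 5 earlier cultivars held ranks 23, 19, 16, 20 and 24 of 24 from high to low. Their mean was 33.2 ± 2.77 tpm (SD, n = 5), against 40.0 ± 4.64 tpm in the later cultivars (n = 19).

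**Figure D3:**
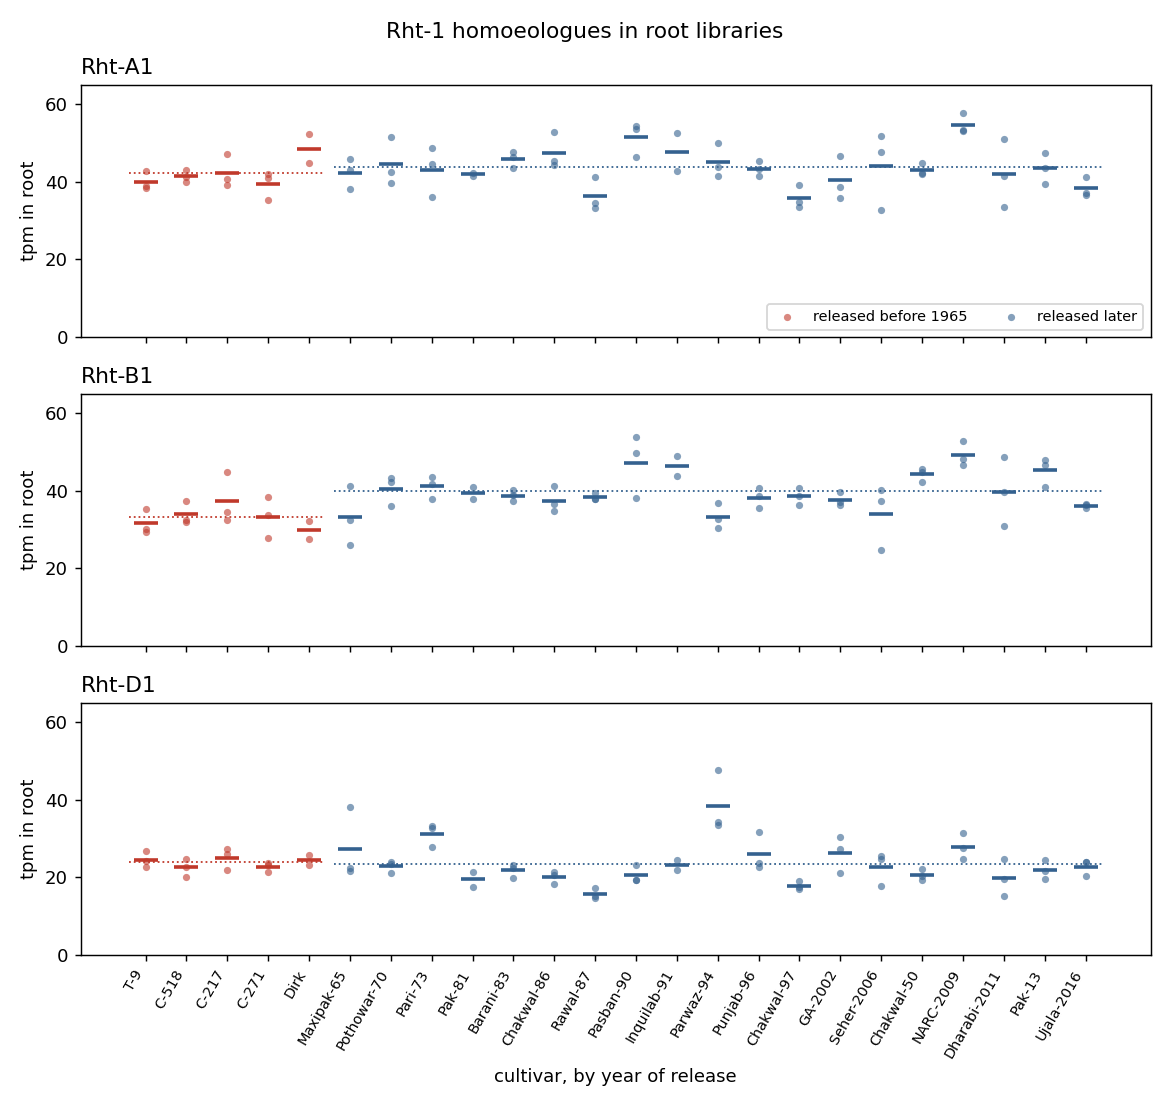
Root levels of Rht-A1, Rht-B1 and Rht-D1 in tpm (vertical axes) for 24 cultivars in the order of their release (horizontal axis); points are libraries, short bars cultivar means, and dotted lines the mean of the 5 cultivars released before 1965 (red) and of the 19 released later (blue). The dotted lines of Rht-B1 lie at 33.2 tpm for the earlier and 40.0 tpm for the later cultivars, and Rht-D1 in Parwaz-94 stands above all other cultivars at 38.5 tpm.

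With edgeR on root counts summed per cultivar, the log2 fold change of earlier over later cultivars was -0.27 for Rht-B1 (SE 0.09, adjusted p = 0.162). It was -0.04 for Rht-A1 (SE 0.09, adjusted p = 0.89) and 0.03 for Rht-D1 (SE 0.14, adjusted p = 0.947). None of the 3 passed the threshold of 0.1, against 3.2% of 66051 genes, and 1 of them, Rht-B1, had an unadjusted p under 0.05 (p = 0.00981 in the edgeR fit). For Rht-B1 the call depended on the tool. DESeq2 gave -0.27 with an adjusted p of 0.0839 and called 6.9% of its genes, limma on log2(tpm + 1) gave -0.25 with an adjusted p of 0.096 and called 5.14%, limma on log2(tpm + 0.1) gave -0.26 with 0.0956 and called 5.02%, and edgeR on single libraries gave -0.25 with an adjusted p of 0.00893 and called 24%. The last of these takes libraries of a cultivar as independent. Over 18 alternatives the log2 fold change of Rht-B1 ran between -0.36 and -0.24 and the adjusted p between 0.00893 and 0.391.

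As a second test of each member, an exact two-sided permutation test over cultivars, with all 42504 ways to choose 5 of 24, was run on the mean log2(tpm + 1). It gave p = 0.00311 for Rht-B1 (difference -0.26, SE 0.06), p = 0.6 for Rht-A1 (-0.04) and p = 0.681 for Rht-D1 (0.05), as 3 tests without adjustment. Leaving out each earlier cultivar in turn, the exact permutation p of Rht-B1 ran between 0.00181 without C-217 and 0.0159 without Dirk. With a replicate number left out, the exact permutation p of Rht-B1 ran between 0.00207 without replicate libraries 2 and 0.0284 without replicate libraries 3. In the latter case the difference was -0.24. With only the root libraries that matched another of their name, 3 earlier and 13 later cultivars remained, and the difference was -0.35 (exact permutation p = 0.00357). Since Rht-B1 is 1 of 3 members that were chosen with earlier results known, these p-values describe it and are not adjusted for the other genes.

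Rht-A1 averaged 42.4 ± 3.66 tpm in the earlier and 43.8 ± 4.64 tpm in the later cultivars, with Dirk highest of the earlier 5 at 48.6 tpm. Rht-D1 averaged 23.9 ± 1.15 tpm in the earlier and 23.5 ± 5.22 tpm in the later cultivars. The earlier cultivars thus lay close together for Rht-D1, between 22.6 and 25.03 tpm, inside the later range of 15.8 to 38.5 tpm.

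The homoeologue shares in root were compared in the same way. The B share was 33.4 ± 2.63% in the 5 earlier and 37.4 ± 3.46% in the 19 later cultivars, a difference of -3.99 points (SE 1.42, exact permutation p = 0.0257, 0.0771 adjusted over the 3 shares). The A share was 42.6 ± 2.60% in the earlier and 40.8 ± 2.02% in the later cultivars (adjusted exact permutation p = 0.152), and the D share was 24.01 ± 0.921% in the earlier and 21.8 ± 3.85% in the later cultivars (adjusted exact permutation p = 0.23). Without Dirk, whose B share was 29.02%, the difference in the B share was -2.90 points and its adjusted exact permutation p was 0.349. Without T-9 the adjusted exact permutation p of the B share was 0.145, without replicate libraries 2 it was 0.151, and without the libraries shifted beside a member, described below, it was 0.122. The difference in the A share passed, at an adjusted exact permutation p of 0.0799, without replicate libraries 1, at 0.0871 without C-217 and at 0.0909 on summed counts. With the matching libraries alone the B share differed by -5.71 points and the A share by 3.18 points (adjusted exact permutation p = 0.075 for each).

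Over the year of release, edgeR gave Rht-B1 a slope of 0.04 on the log2 scale per decade (SE 0.01, adjusted p = 0.192). The slope of Rht-A1 was 0.01 (SE 0.01, adjusted p = 0.855) and that of Rht-D1 was -0.01 (SE 0.02, adjusted p = 0.868). With the matching libraries alone the slope of Rht-B1 was 0.05 (SE 0.02, adjusted p = 0.244). No member passed, while 2.5% of 67932 genes did, and neither DESeq2 (2.92% of its genes) nor limma on log2(tpm + 1) (4.08%) called any of the 3. Rht-B1 alone had an unadjusted p under 0.05 (p = 0.0106 in the edgeR fit).

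In a few libraries a stretch of chromosome 4B around Rht-B1 was counted more or less than in the rest, with Rht-B1 on the same side in some of them and not in others. The measure was the median log2 ratio of the 50 nearest expressed genes to their tissue median, less the library's own median over all expressed genes. In root, it was -0.60 in Maxipak-65 library 1, where Rht-B1 was 26.1 tpm against 32.4 and 41.3 tpm in the other libraries of that name. In C-271 library 1 the 50 neighbours lay at -0.29 and the whole of chromosome 4B at -0.33, and Rht-B1 was 27.9 tpm against 38.4 and 33.8 tpm. In leaf, Ujala-2016 library 1 had its Rht-B1 neighbours at -0.96 and chromosome 4B at -0.90, and Rht-B1 was 29.02 tpm against 64.1 and 57.6 tpm. Rht-A1 and Rht-D1 in that leaf library were 33.2 and 19.6 tpm, while the other libraries of that name had 27.7 and 29.04 tpm of Rht-A1 and 15.6 and 18.5 tpm of Rht-D1. In Sonalika library 1, a leaf library outside the list, the neighbours lay at 0.27 and Rht-B1 at -0.10, on the other side. In leaf Seher-2006 library 1 the whole of chromosome 4B lay at 0.30 but the neighbours of Rht-B1 at -0.04, with Rht-B1 at 67.8 tpm.

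**Figure D4:**
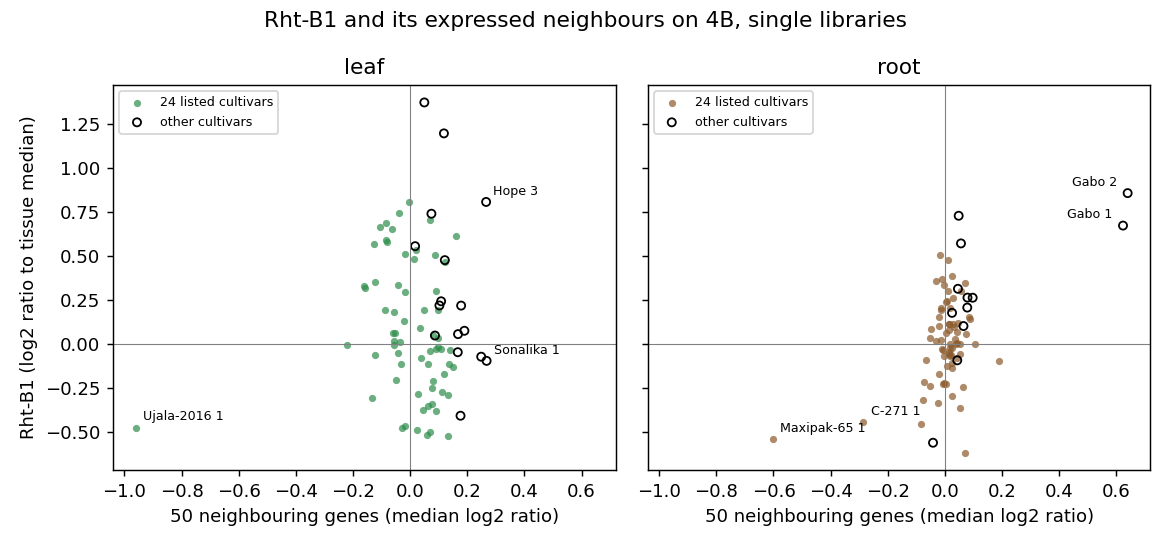
Rht-B1 as a log2 ratio to its tissue median (vertical axis) against the median log2 ratio of its 50 expressed neighbours on 4B, relative to the library (horizontal axis), in leaf (left) and root (right); filled points are libraries of the 24 listed cultivars, open points the other cultivars. Ujala-2016 library 1 in leaf lies at -0.96, and in root Maxipak-65 library 1 lies at -0.60 and Gabo libraries 1 and 2 at 0.62 and 0.64 on the horizontal axis, each with Rht-B1 shifted in the same direction.

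The comparison of eras was also set beside these shifts. The neighbours of Rht-B1 averaged -0.03 ± 0.06 in the 5 earlier and 0.01 ± 0.05 in the 19 later cultivars on the log2 scale. Rht-B1 itself differed by -0.26 in mean log2(tpm + 1), which is not the same measure. Whether the shifts had a part in the difference between eras was not tested. Leaving out the 2 shifted root libraries, an alternative chosen after seeing the data, gave a difference of -0.24 in mean log2(tpm + 1) for Rht-B1 (exact permutation p = 0.00367).

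Among the members themselves, Rht-A1 and Rht-B1 varied together most, with a Pearson's r of log2 CPM of 0.595 over 66 leaf libraries and 0.565 over 69 root libraries. Rht-A1 and Rht-D1 had 0.323 in leaf and 0.445 in root, and Rht-B1 and Rht-D1 had 0.33 in leaf and 0.0839 in root. These are correlations across libraries that share cultivars, given without a test.

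The genes most like each member, other than the members themselves, were found over 23852 genes in leaf and 32496 genes in root with a median of at least 5 CPM. In leaf, Rht-B1 itself was slightly closer to Rht-A1, at r = 0.595, than any of these genes. For Rht-B1 they were TraesCS5D02G481700 (r = 0.721) and TraesCS2B02G323100 (r = 0.711) in leaf, and TraesCS3B02G448800 (r = 0.698) and TraesCS2A02G577100 (r = 0.665) in root. For Rht-A1 they were TraesCS1B02G200000 (r = 0.594) and TraesCS4A02G371600 (r = 0.585) in leaf, and TraesCS6B02G112800 (r = 0.717) and TraesCS1D02G034100 (r = 0.709) in root. For Rht-D1 they were TraesCS1A02G134300 (r = 0.565) and TraesCS1A02G175700 (r = 0.519) in leaf, and TraesCS5D02G544700 (r = 0.597) and TraesCS5D02G501100 (r = 0.556) in root. No gene was among the closest 2 of more than 1 member, and none was shared by leaf and root.

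With no annotation of the identifiers at hand, other hormone genes were taken from the study's own gene list, 27 genes for brassinosteroid, auxin and abscisic acid signalling. Of 24 tested in leaf vs root with edgeR, 9 were higher and 10 lower in leaf at an adjusted p under 0.1, with a median log2 fold change of 0.02 against -0.14 over all genes. Over all genes 40.3% were called higher and 47.6% lower, so the list stood near the background. LRA1, whose genes also served as root markers, had at most 4 counts in any leaf library, with log2 fold changes of -7.47 for LRA1_7A, -7.89 for LRA1_7B and -6.79 for LRA1_7D, and the brassinosteroid receptor BRi1 was lower in leaf at -1.83 for BRi1_3D and -2.31 for BRi1_3B. The auxin response factor ARF4_3D was higher in leaf at 1.28, and at 0.18 on log2(tpm + 1). On that scale only ARF4_3D and SERK1_2B of the 24 had a higher mean in leaf, and ARF4_3A and ARF4_3B, at 0.99 and 0.97 with TMM, were at -0.10 and -0.28. Between the earlier and later root cultivars edgeR called none of the 24 genes, with 3 at an unadjusted p under 0.05, while DESeq2 and limma called 1 each, against 3.2% of all genes called by edgeR, 6.9% by DESeq2 and 5.14% by limma. That gene was SERK1_2B, a brassinosteroid co-receptor, named here after its values were seen, at a log2 fold change of -0.57 (adjusted p = 0.112 with edgeR, 0.0409 with DESeq2 and 0.0382 with limma on log2(tpm + 1)). Over the year of release edgeR called SERK1_2B alone, at 0.10 per decade (adjusted p = 0.0942), against 2.5% of all genes. Calls of 1 in 24 are near these backgrounds. Unlike the BRi1 homoeologues, all lower in leaf on both scales, the 3 Rht-1 homoeologues shared a direction on both scales only relative to the median of all genes.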

How the data were processed

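Per the study's methods, 50-base single-end reads were cleaned with SOAPnuke, mapped to the bread wheat reference with HISAT2 and counted per gene with featureCounts by the authors. The deposited counts are whole numbers without normalization. The deposited tpm values equalled tpm computed from counts and gene lengths in 161 of 161 tables compared (tolerance 0.001), and 2 incomplete tpm tables were not used. Whether reads shared by homoeologues were counted, and strand, was not given in the sources used here, so the split between near-identical copies is uncertain.

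Counts summed per cultivar and tissue (single libraries for differences between cultivars) were tested with edgeR 4.0.16 in R 4.3.3 (TMM, filterByExpr, quasi-likelihood F-test, Benjamini-Hochberg over all genes, threshold 0.1). Shares were tested by permutation over cultivars with scipy 1.17.1. Alternatives used DESeq2 1.42.0 and limma 3.58.1. On simulated data all 200 changed genes (log2 fold 2) were recovered, with 20 false calls among 66051 genes for the eras. That simulated fold is far above the differences of the members between eras, so the power to call those was not examined. The simulated spread was a fixed value for all genes, not taken from these cultivars, and only well-counted genes were changed. The number of false calls therefore need not hold for the real data. The members and lists were chosen with earlier results of these data known. Beside the members, the text names the 2 most correlated genes per member and tissue and 6 hormone genes by smallest adjusted p. ARF4_3A, ARF4_3B and SERK1_2B were named beyond that rule.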

Additional observations from a re-analysis of the deposited data

Results flagged for a closer look

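Among the 5 root cultivars released before 1965, the A share of Dirk, at 47.1% of the summed tpm, lay far from the other 4, with a gap of 0.719 of the whole range. It was 1 of 6 such groups examined, and chance alone marks about 1 group in 20.

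In cultivars outside the study's list, 12 values of single libraries exceeded every library of the 24 listed cultivars in the same tissue. For Rht-A1 in leaf these were 64.4 tpm in S-24 library 1, 60.5 tpm in TJ-83 library 3, and 63.3 and 59.5 tpm in Zincol-2016 libraries 1 and 3, against a highest listed value of 56.4 tpm. For Rht-B1 in leaf they were 104.67 tpm in TJ-83 library 3 and 92.6 and 70.69 tpm in Hope libraries 2 and 3, against 70.66 tpm. For Rht-B1 in root they were 60.6 and 68.9 tpm in Gabo libraries 1 and 2 and 63.0 and 56.5 tpm in Zincol-2016 libraries 1 and 2, against 53.9 tpm. For Rht-D1 in leaf it was 43.5 tpm in S-24 library 3, against 35.5 tpm. In Gabo libraries 1 and 2 the 50 neighbours of Rht-B1 lay at 0.62 and 0.64 on the log2 scale, and Gabo library 3 had 42.9 tpm of Rht-B1.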

How the results depend on the processing

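Of 359 recomputed values, 310 kept their direction and their side of the threshold or, for counts of genes, stayed within 1.5 times. In leaf vs root, limma on log2(tpm + 1) and log2(tpm + 0.1) turned Rht-A1 to -0.53 and -0.54 and Rht-D1 to -0.33 and -0.35, and 26965 genes passed with at least 10 counts in every sample. With the cultivar as a replicate block, Rht-A1 was 0.54, Rht-B1 1.24 and Rht-D1 0.73, and 54780 genes passed; same-named leaf and root deviated together with r over 0.1 in 10 of 24 cultivars. A block on the replicate number left 53299 root and 14965 leaf genes called between cultivars and changed no call of a member, and same-numbered libraries of different cultivars had a median r of 0.00452 in root and 0.0151 in leaf.

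Between eras, the 2113 genes called became 734 at an adjusted p under 0.05, 4550 with DESeq2, 3397 and 3313 with limma on log2(tpm + 1) and log2(tpm + 0.1), 13789 with single libraries, 699 with matching libraries only, 266 to 1751 with a replicate number left out, 378 without C-271, 318 without C-518, 598 without T-9 and 2911 without Dirk. Rht-B1 passed with DESeq2 (-0.27), limma (-0.25 and -0.26) and single libraries (-0.25), and Rht-D1 ran between -0.018 and 0.094 when a replicate number was left out and was -0.0097 without Dirk. For the year of release, 1701 genes became 815 at 0.05, 936 with at least 10 counts, 2773 and 2622 with limma, 507 without T-9, 546 with matching libraries and 565 to 1542 with a replicate left out. Between root cultivars, 53765 became 30289 with at least 10 counts and 35140 to 42934 with a replicate left out, when the adjusted p of Rht-A1 ran between 0.0122 and 0.123. Between leaf cultivars, 15440 became 6786 with at least 10 counts, 29674 with all deposited cultivars and 4225 to 7095 with a replicate left out. There the adjusted p of Rht-A1 was 0.0764 with DESeq2 and 0.0778 with all cultivars, that of Rht-B1 0.0615 with all cultivars, and that of Rht-D1 between 0.0421 and 0.906 with a replicate left out. The D share in leaf minus root ran between -2.68 and -1.11 points with a replicate left out. Between eras the A share differed by 2.08 points in summed counts, by 3.18 with matching libraries and by 0.992 to 2.42 with a replicate number left out, 2.34 without C-217 and 0.703 without Dirk, and the B share by -3.59 without the shifted libraries and by -4.38 to -3.68 with a replicate number left out, -3.85 without T-9 and -2.90 without Dirk. Where a setting ended or made a call, the cause was not tested. None of the 69 root libraries of the listed cultivars passed the limit of 0.5 on chromosomes 4A, 4B or 4D, so that alternative gave no value there. At counts of 126 to 1116 per member, the counting error averaged over libraries was 3.87% to 6.65%, by gene and tissue. The spread among libraries of the same name was wider, at 10.99% to 29.9% of the mean.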
